A study of Mus musculus with 15 samples.

Results

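The 10 heat shock chaperone genes described here are Hspa1a, Hspa1b, Hspa8, Hsph1, Hsp90aa1, Hsp90ab1, Hspb1, Hspe1, Hspd1 and Dnajb1. They were taken by gene symbol from a table of 45706 mouse genes, of which 17650 passed the filter on low counts, and all 10 passed it. The rule uses the symbols alone, but the members were chosen with earlier results of these data known. RNA abundance was measured by stranded, poly-A selected sequencing in cultured endothelial cells of lymphatic vessels and lymph node sinuses, abbreviated LECs. The cells were Pdpn+ CD31+ CD45- cells from lymph nodes of several sites, pooled, of female C57Bl/6 mice whose age was not given. All were grown in MEMα medium with fetal bovine serum, penicillin and streptomycin. Each group holds 5 libraries, lettered A to E. For 72 h the medium held no added VEGF-C (unstimulated) or murine VEGF-C at 10 or 100 ng/mL, a recombinant protein made in HEK-293E cells. VEGF-C is a growth factor for lymphatic vessels, and its receptor on LECs is Flt4.

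Heat shock proteins are chaperones: they hold unfolded protein chains, help them fold and keep them from clumping. HSP70 proteins bind exposed hydrophobic stretches in a cycle driven by ATP, J-domain proteins such as Dnajb1 bring the chains and start that cycle, and HSP110 proteins such as Hsph1 exchange the nucleotide that ends it. HSP90 proteins act later, on nearly folded kinases and receptors, small heat shock proteins hold unfolding protein without ATP, and Hspd1 with its lid Hspe1 forms the folding chamber of the mitochondrion. When unfolded protein accumulates, the factor Hsf1 binds heat shock elements, which are inverted repeats of GAA, and raises the inducible members, of which Hspa1a, Hspa1b, Dnajb1 and Hsph1 are textbook examples.

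Total estimated counts ranged from 27784906 to 38590841 per library. Values below are counts scaled to a common library size (CPM) after TMM scaling, as mean ± SD over 5 libraries, and a gene was called at an adjusted p under 0.05 in edgeR's quasi-likelihood test with Benjamini-Hochberg adjustment over the 17650 genes. Libraries E (unstimulated), D (10 ng/mL) and B (100 ng/mL) stood apart on the second principal component, at 41.1, 28.2 and 45.1 against -30.8 to 5.5 in the other 12 libraries. Of 10 LEC markers, 8 were detected above the filter, among them Flt4 at 615 ± 87.9 CPM in unstimulated cells, while Ccl21a and Mmrn1 did not pass it. At 100 against 0 ng/mL 4 of these 8 rose, and of 8 pan-endothelial markers 6 rose and 1 fell. Over all genes tested, 21.3% were called higher and 21.5% lower in this comparison. The counts of the lists in this paragraph are to be read beside these shares. Of 18 early response genes, which handling can raise, 5 rose and 6 fell, with sums of 1272 to 1615 CPM unstimulated and 1175 to 1473 CPM at 100 ng/mL. Many markers of other cells were lower at 100 ng/mL, while none was called at 10 against 0 ng/mL. Of 18 fibroblastic and mural markers, 16 were tested and 13 were lower at 100 ng/mL than without VEGF-C, with summed levels of 3240 to 4717 CPM unstimulated, 2712 to 4475 CPM at 10 ng/mL and 961.7 to 1411 CPM at 100 ng/mL. Of 14 leukocyte markers, 12 were tested and 10 were lower, with sums of 56.2 to 157.4, 48.56 to 128.3 and 25.91 to 47.08 CPM. Of the fibroblastic markers, Lum and Ccl19 did not pass the filter. The part of these cells in the values below was not tested, and in bulk RNA fewer cells of a type cannot be told apart from less RNA per cell. Whether the 5 libraries of a group are separate cultures is not stated in the labels. The p-values therefore reflect the spread between libraries, which may be technical.

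At 100 ng/mL VEGF-C, 3 of the 10 chaperone genes differed from unstimulated cells. Hsp90ab1, the constitutive cytosolic HSP90, rose 1.27-fold, Hspa1b, an inducible HSP70, rose 1.56-fold, and Dnajb1, a J-domain partner of HSP70, fell to 0.87 of its level. The other 7 were not called, and no member was called at 10 ng/mL. Called genes made up 42.8% of all genes tested at 100 against 0 ng/mL, with 21.3% higher and 21.5% lower, so that the members' count of 2 higher and 1 lower was not above this background. The median log2 fold change of the members was 0.01, beside 0.01 over all genes. The groups did not overlap for 2 of the 10 members, Hsp90ab1 and Dnajb1, and for 27.2% of all genes. Summed over the 10 members, estimated counts scaled to a common library total (CPM without TMM) were 1571 ± 53.1 unstimulated, 1548 ± 17.8 at 10 ng/mL and 1649 ± 46.9 at 100 ng/mL. The largest parts of this sum were Hsp90ab1 and Hsph1. With TMM they were at 610.7 and 578.2 CPM unstimulated and at 777.1 and 516.8 CPM at 100 ng/mL. Of these, only Hsp90ab1 was called.

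**Figure D1:**
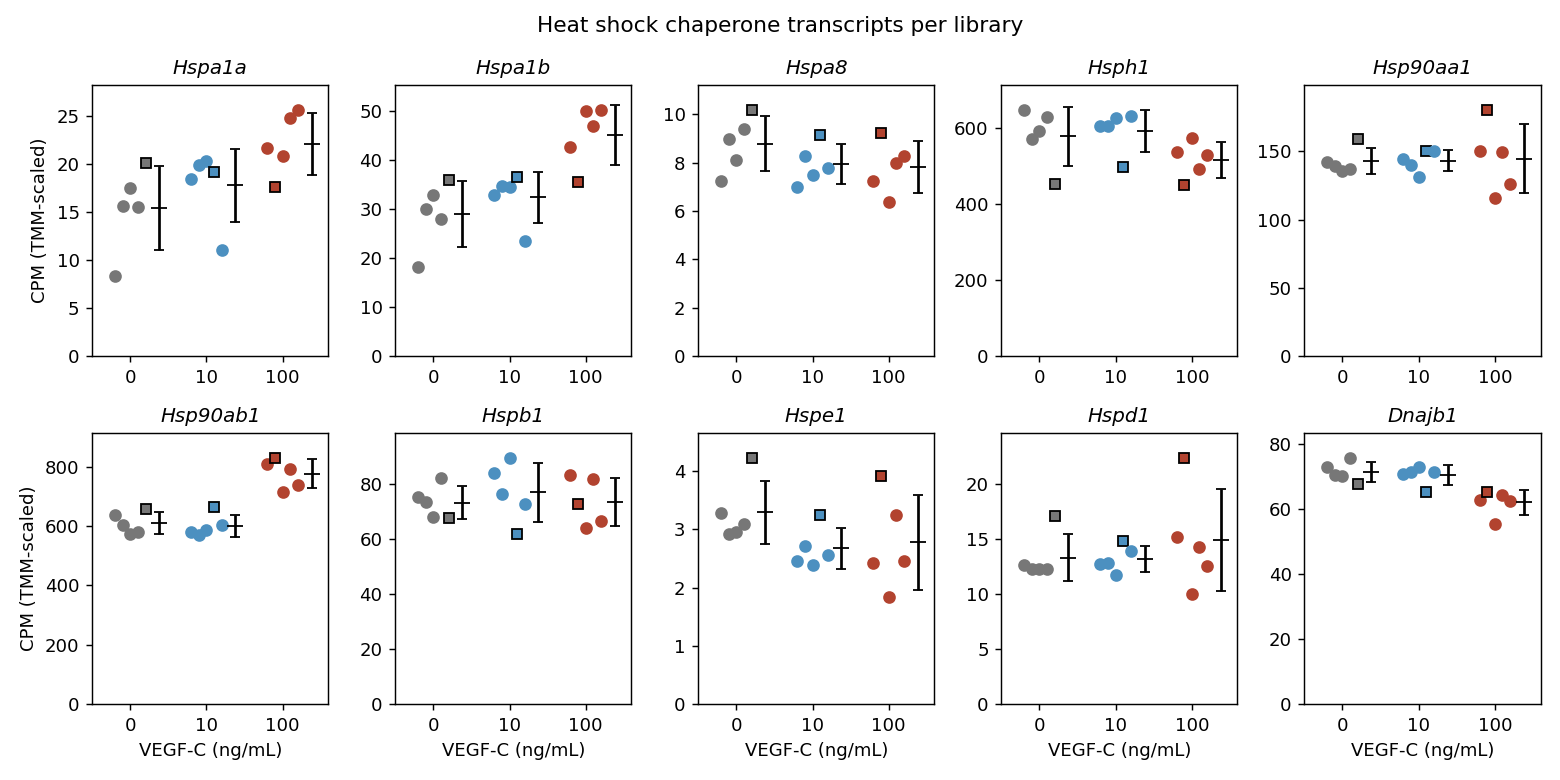
CPM (TMM-scaled) of each chaperone gene in every library (vertical axis, from 0) against the VEGF-C concentration in ng/mL (horizontal axis); points are libraries A to E from left to right within a group, black-edged squares are the libraries that stood apart (unstimulated E, D at 10 ng/mL and B at 100 ng/mL), and the bar is the mean ± SD of 5 libraries. The 100 ng/mL libraries of Hsp90ab1, at 713 to 831 CPM, lie above all others, and those of Dnajb1, at 55.6 to 65.3 CPM, lie below all unstimulated libraries.

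The members spanned a wide range of expression. Per length, as RPKM (reads per kilobase of gene, scaled to library depth) in unstimulated cells, Hsp90ab1 stood highest at 109.6 ± 8.34, at the 99.0th percentile of the genes tested. Hsph1 followed at 42.8 ± 5.44 and Hspb1 at 38.3 ± 2.78, and these neighbours in the order overlapped, with 34.2 to 48.7 against 35.3 to 42.2 RPKM. Hsp90aa1 was at 19.6 ± 1.64, with every unstimulated library above Dnajb1, at 17.0 ± 0.629. Hspa1b was at 5.57 ± 1.31, Hspa1a at 3.45 ± 0.997 and Hspd1 at 2.84 ± 0.502, and each of these neighbours overlapped. Hspe1, at 1.30 ± 0.239, and Hspa8, at 1.22 ± 0.163, were lowest, overlapped, and lay at the 33.5th and 32.3rd percentiles. Hspa8 is the constitutive HSP70 and is known as an abundant transcript of most cells, so its place below the inducible Hspa1b goes against that background. With its listed copies added, Hspa8 was at 14.5 ± 1.48 CPM unstimulated, still below Hspa1b at 29.0 ± 6.70 CPM. The annotated copies Gm6210 (98.6% identical) and Gm7232 (96.5%) had no listed counts and are not in this sum. The cause of its low listed level was not tested. The listed levels of Hspe1 and Hspd1 are uncertain too, since copies held 58.7% and 53.0% of their family counts, as given below.

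Hspa1a and Hspa1b, on chromosome 17 (GRCm38; 34969190 to 34972156 and 34956436 to 34959238, minus strand), encode the inducible cytosolic HSP70 and are nearly the same gene. Their transcripts were 99.2% identical over 2201 aligned bases, and 58.8% of the 50-base stretches of Hspa1a also occur in Hspa1b. The stretch of 60 coding bases with the most differences shows how little separates them (coding positions 1357 to 1416, GENCODE M21, differing bases in capitals).
Hspa1a: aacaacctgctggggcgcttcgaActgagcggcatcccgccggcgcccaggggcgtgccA
Hspa1b: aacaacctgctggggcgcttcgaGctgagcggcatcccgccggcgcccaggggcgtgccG
Reads from the stretches that both genes share can be placed in either gene, so the sum of their counts is given beside each gene.

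Hspa1b was at 18.2, 29.9, 32.8, 28.05 and 35.9 CPM in unstimulated libraries A to E, at 32.9, 34.7, 34.5, 36.5 and 23.4 CPM at 10 ng/mL and at 42.7, 35.5, 49.96, 46.9 and 50.3 CPM at 100 ng/mL. Unstimulated A and 10 ng/mL E were the lowest of their groups, and 100 ng/mL B lay within the unstimulated range. The rise at 100 ng/mL was 0.64 ± 0.16 on the log2 scale against unstimulated cells (SE, 95% interval 0.29 to 0.99, edgeR adjusted p = 0.00555) and 0.48 ± 0.16 against 10 ng/mL (adjusted p = 0.0302). The second was lost with 10 ng/mL A left out (0.48, adjusted p = 0.0517), 10 ng/mL E (0.38, 0.073), 100 ng/mL C (0.44, 0.0578), D (0.46, 0.058) or E (0.43, 0.0683). Hspa1a was at 8.30, 15.6, 17.5, 15.5 and 20.1 CPM unstimulated, at 18.4, 19.9, 20.3, 19.1 and 11.1 CPM at 10 ng/mL and at 21.6, 17.6, 20.8, 24.7 and 25.6 CPM at 100 ng/mL. The same libraries, unstimulated A and 10 ng/mL E, were lowest. Its difference at 100 ng/mL, 0.52 ± 0.21 on the log2 scale (95% interval 0.08 to 0.96), just missed the threshold (edgeR adjusted p = 0.0536). It passed in limma-voom (adjusted p = 0.0446), in DESeq2 (Wald test, 0.0328) and without unstimulated E (0.64, 0.0262), 10 ng/mL E (0.52, 0.0307) or 100 ng/mL B (0.59, 0.0357).

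The summed pair rose from 44.4 ± 11.1 CPM unstimulated to 67.1 ± 8.88 CPM at 100 ng/mL, with 50.2 ± 8.91 CPM at 10 ng/mL. Unstimulated libraries A to E held 26.5, 45.5, 50.3, 43.5 and 55.9 CPM, and those at 100 ng/mL held 64.3, 53.1, 70.8, 71.6 and 75.9 CPM, so that only 100 ng/mL B fell below the highest unstimulated library. The log2 fold change of the sum was 0.60 ± 0.18 (edgeR adjusted p = 0.0128) at 100 against 0 ng/mL, a call kept in all 26 alternatives that gave a value, and 0.42 ± 0.18 (adjusted p = 0.0697) against 10 ng/mL. The latter was called without unstimulated A (0.42, adjusted p = 0.0204), without 100 ng/mL B (0.50, 0.0381), without the 3 libraries that stood apart (0.53, 0.0309) and in a fit of only the 10 libraries compared (0.42, 0.0336). Hspa1b made up 65.7 ± 1.8% of the pair unstimulated, 64.8 ± 2.0% at 10 ng/mL and 67.1 ± 2.0% at 100 ng/mL. In 3 comparisons of this share, exact two-sided permutation tests (n = 5 against 5) gave p of 0.294, 0.484 and 0.111 for 100 against 0, 10 against 0 and 100 against 10 ng/mL (adjusted 0.441, 0.484 and 0.333, smallest p possible 0.00794), so a shift of the share was not detected.

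The 250 bases upstream of both genes are shown because the summed pair rose. Each window (RefSeq, GRCm38.p6) holds 1 match to the 8-base core of a heat shock element, in capitals, 104 bases before the start.
Hspa1a chr17:34972157-34972406 (minus strand): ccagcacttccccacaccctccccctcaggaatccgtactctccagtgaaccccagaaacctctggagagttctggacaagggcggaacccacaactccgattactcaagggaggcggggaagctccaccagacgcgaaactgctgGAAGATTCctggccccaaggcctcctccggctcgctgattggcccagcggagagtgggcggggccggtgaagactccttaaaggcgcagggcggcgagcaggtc
Hspa1b chr17:34959239-34959488 (minus strand): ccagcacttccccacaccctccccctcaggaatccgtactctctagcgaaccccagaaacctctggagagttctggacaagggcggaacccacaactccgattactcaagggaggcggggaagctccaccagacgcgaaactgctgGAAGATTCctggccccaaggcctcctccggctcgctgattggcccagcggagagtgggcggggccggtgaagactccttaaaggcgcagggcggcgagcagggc
The windows differ at 3 of 250 positions, C44T, T47C and T249G, counted from 1 at the 5′ end with the base of Hspa1a first. The search covered both strands for GAANNTTC and TTCNNGAA, which read the same on either strand, and for a 13-base form in which these 2 cores overlap by their shared GAA or TTC, so that each 13-base match contains both 8-base cores. Over all 32851 upstream windows of this length, 6.7% held GAANNTTC, 7.2% TTCNNGAA, 12.8% either and 0.5% the 13-base form. Windows of 7 of the 10 members were found. A match is a string of letters and not a measured binding site.

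Hspa8, on chromosome 9 (40800984 to 40810087, plus strand), was at 7.22, 8.98, 8.13, 9.40 and 10.19 CPM unstimulated, 6.99, 8.25, 7.50, 9.16 and 7.80 CPM at 10 ng/mL and 7.26, 9.22, 6.39, 7.99 and 8.28 CPM at 100 ng/mL. The groups overlapped throughout. Its log2 fold change at 100 ng/mL was -0.17 ± 0.11 (95% interval -0.41 to 0.07, edgeR adjusted p = 0.255). Within libraries, the ratio of the Hspa1a and Hspa1b counts to the Hspa8 count went from 5.01 ± 0.942 unstimulated to 8.76 ± 1.91 at 100 ng/mL, a log2 difference of 0.80. An exact two-sided permutation test (n = 5 against 5) gave p = 0.0159, or 0.0286 adjusted over 9 tests, which are the 3 comparisons for each of 3 gene pairs chosen after values were seen. The adjusted p was 0.0571 when unstimulated A, B, D or E or 100 ng/mL A, C, D or E was left out, with log2 differences from 0.69 to 0.83.

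Hsph1, the HSP110 that exchanges nucleotide on HSP70, lies on chromosome 5 (149614287 to 149636376, minus strand) and was second among the members in RPKM. It was at 649, 570, 592, 629 and 452 CPM unstimulated, at 606, 605, 627, 497 and 632 CPM at 10 ng/mL and at 538, 450, 574, 492 and 530 CPM at 100 ng/mL. In each group its lowest library was the library that stood apart, which holds for 13.91% of all genes tested. The log2 fold change was -0.16 ± 0.098 at 100 against 0 ng/mL (edgeR adjusted p = 0.206) and -0.20 ± 0.098 at 100 against 10 ng/mL (adjusted p = 0.123). Without unstimulated E the first became -0.24 (adjusted p = 0.0323), and without 10 ng/mL D the second became -0.26 (0.0444). With all 3 of those libraries left out they were -0.19 (adjusted p = 0.0152) and -0.21 (0.00978), and the number of members called at 100 against 0 ng/mL went from 3 to 5, with Hspa1a at 0.71 (adjusted p = 0.0202) and Hsph1 added. RefSeq gives Hsph1 2 starts, and the 8-base core occurs in 1 place, 33 or 54 bases before them, shown as 30 bases of the minus strand. This place lies inside the GENCODE span of the gene given above.
Hsph1 chr5:149636351-149636380 (minus strand): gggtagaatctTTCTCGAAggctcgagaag

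Dnajb1, the J-domain protein that pairs with inducible HSP70, fell. It lies on chromosome 8 (83608193 to 83612653, plus strand). Libraries A to E were at 73.0, 70.4, 70.1, 75.8 and 67.7 CPM unstimulated, at 70.9, 71.3, 72.9, 65.1 and 71.5 CPM at 10 ng/mL and at 62.9, 65.3, 55.6, 64.5 and 62.5 CPM at 100 ng/mL. All 5 libraries at 100 ng/mL lay below all 5 unstimulated ones, while 100 ng/mL B overlapped 10 ng/mL D. The log2 fold change was -0.20 ± 0.051 against unstimulated (95% interval -0.31 to -0.09, edgeR adjusted p = 0.00501) and -0.18 ± 0.051 against 10 ng/mL (adjusted p = 0.0109). No pseudogene copy of Dnajb1 or Hsph1 was found under the rule given below, and other kinds of gene were not counted as copies. The Dnajb1 windows held no match to the motifs searched.

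Hsp90ab1 and Hsp90aa1 encode the constitutive and the stress-inducible cytosolic HSP90, on chromosomes 17 (45567775 to 45573271) and 12 (110690605 to 110702728), both on the minus strand. Hsp90ab1 was at 638, 603, 575, 581 and 657 CPM unstimulated, at 580, 571, 587, 664 and 603 CPM at 10 ng/mL and at 808, 831, 713, 794 and 739 CPM at 100 ng/mL. Every 100 ng/mL library exceeded every other library. The log2 fold change was 0.35 ± 0.061 against unstimulated (95% interval 0.22 to 0.48, edgeR adjusted p = 0.000345) and 0.37 ± 0.061 against 10 ng/mL (adjusted p = 0.000223). Hsp90aa1 was at 142, 139, 136, 138 and 160 CPM unstimulated, at 145, 140, 132, 150 and 150 CPM at 10 ng/mL and at 151, 181, 116, 150 and 126 CPM at 100 ng/mL. The means of its groups were alike, and the 100 ng/mL group spread on both sides of the others. Its log2 fold change at 100 ng/mL was 0.02 ± 0.097 (95% interval -0.19 to 0.22, edgeR adjusted p = 0.905), and its sign turned under several settings.

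The difference between the 2 HSP90 genes was tested within libraries, for a pair chosen after values were seen. The count of Hsp90ab1 was 4.28 ± 0.141 times that of Hsp90aa1 unstimulated (4.12 to 4.49), 4.20 ± 0.222 times at 10 ng/mL (4.01 to 4.46) and 5.46 ± 0.602 times at 100 ng/mL (4.596 to 6.17). The 100 ng/mL libraries lay above all others. The log2 difference was 0.34 against unstimulated and 0.37 against 10 ng/mL, each with p = 0.00794 in an exact two-sided permutation test (n = 5 against 5, the smallest p possible), or 0.0179 adjusted over the 9 tests. At 10 against 0 ng/mL it was -0.03 (exact p = 0.476, adjusted 0.476). Without the 3 libraries that stood apart the differences at 100 ng/mL were 0.39 and 0.45 (adjusted p = 0.0429). With each gene summed with its copies they were 0.34 and 0.37 (adjusted p = 0.0179). The main copies kept nearly constant shares of these genes, as given below, so this sum could hardly give another result.

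**Figure D2:**
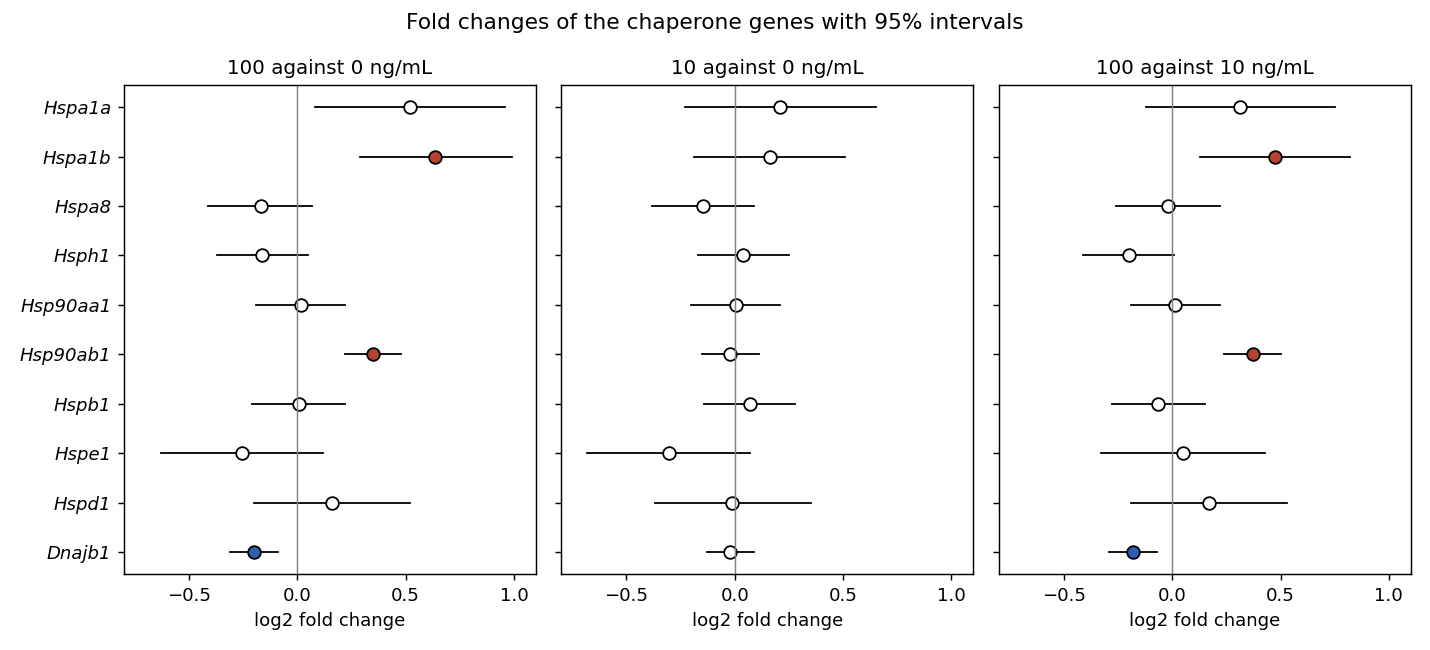
Log2 fold change of each member (horizontal axis) for 100 against 0, 10 against 0 and 100 against 10 ng/mL VEGF-C, with 95% intervals; red points were called higher, blue lower and white not called in edgeR (adjusted p under 0.05). Hspa1b and Hsp90ab1 were called higher and Dnajb1 lower in both comparisons with 100 ng/mL, and no member was called at 10 against 0 ng/mL.

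Hspb1, the small heat shock protein HSP25 of the mouse, lies on chromosome 5 (135887919 to 135889563, plus strand). It was at 75.3, 73.6, 68.2, 82.3 and 67.7 CPM unstimulated, at 84.1, 76.6, 89.8, 62.0 and 73.0 CPM at 10 ng/mL and at 83.3, 72.9, 64.0, 81.8 and 66.5 CPM at 100 ng/mL. The groups overlapped across their whole ranges. The log2 fold change at 100 ng/mL was 0.01 ± 0.10 (95% interval -0.21 to 0.22, edgeR adjusted p = 0.97), and its sign turned under several settings. Its upstream window holds 2 matches to the 8-base core, in capitals, 117 and 97 bases before the start, and is shown in full.
Hspb1 chr5:135887669-135887918 (plus strand): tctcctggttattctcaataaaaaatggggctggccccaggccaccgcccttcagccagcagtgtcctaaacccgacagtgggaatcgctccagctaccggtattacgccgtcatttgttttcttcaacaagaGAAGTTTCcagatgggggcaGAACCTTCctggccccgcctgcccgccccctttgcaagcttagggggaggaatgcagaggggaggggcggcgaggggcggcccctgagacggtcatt

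Hspe1 and Hspd1, the lid and the barrel of the mitochondrial chaperonin, are neighbours on chromosome 1 (55088132 to 55091307 on the plus strand and 55077835 to 55088243 on the minus strand) and are transcribed away from a shared region. The Hspe1 window there holds 3 overlapping 8-base matches, which make 2 matches to the 13-base form. RefSeq gives Hspd1 2 starts: the window of the inner start holds the same matches, which lie inside the GENCODE span of Hspd1, and the window of the outer start (55088244 to 55088493) holds 0. It is shown as 30 bases in the direction of each gene.
Hspe1 chr1:55088053-55088082 (plus strand): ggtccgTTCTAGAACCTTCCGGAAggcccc
Hspd1 chr1:55088053-55088082 (minus strand): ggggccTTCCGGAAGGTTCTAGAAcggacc
The 13-base form occurs in 0.5% of all windows.

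Hspd1 was at 12.7, 12.3, 12.3, 12.3 and 17.1 CPM unstimulated, at 12.8, 12.9, 11.8, 14.8 and 13.9 CPM at 10 ng/mL and at 15.2, 22.4, 10.0, 14.3 and 12.6 CPM at 100 ng/mL. Unstimulated E and 100 ng/mL B were well above the rest of their groups. Hspe1 was at 3.28, 2.92, 2.95, 3.09 and 4.23 CPM unstimulated, at 2.45, 2.71, 2.38, 3.25 and 2.56 CPM at 10 ng/mL and at 2.43, 3.91, 1.83, 3.25 and 2.45 CPM at 100 ng/mL, with the same libraries highest. Neither was called at 100 against 0 ng/mL, with log2 fold changes of 0.16 ± 0.17 (95% interval -0.20 to 0.52, edgeR adjusted p = 0.484) for Hspd1 and -0.25 ± 0.18 (-0.63 to 0.12, adjusted p = 0.274) for Hspe1. Without 100 ng/mL B the value of Hspd1 was -0.03.

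The ratio of the 2 counts was steadier than either gene. Unstimulated libraries A to E had 0.259, 0.239, 0.238, 0.251 and 0.247 Hspe1 counts for each Hspd1 count, 10 ng/mL libraries 0.192, 0.212, 0.202, 0.219 and 0.185, and 100 ng/mL libraries 0.160, 0.174, 0.182, 0.226 and 0.194. All treated libraries at both doses lay below all unstimulated ones, although the levels themselves overlapped. The log2 difference was -0.29 at 10 ng/mL and -0.41 at 100 ng/mL against unstimulated. Each had p = 0.00794 in an exact two-sided permutation test (n = 5 against 5, the smallest p possible), or 0.0179 adjusted over the 9 tests. Between the doses it was -0.12 (exact p = 0.262, adjusted 0.295). This pair was chosen after values were seen, and the adjustment covers only the chosen pairs. Summed with their copies the differences were -0.19 and -0.25 (adjusted p = 0.0179), and without the 3 libraries that stood apart they were -0.32 and -0.38 (0.0429). Hspe1 had a mean of 98.1 counts per library, for which counting alone gives this ratio a coefficient of variation of 10.6 to 12.1%, against 3.53% observed unstimulated, 6.84% at 10 ng/mL and 13.4% at 100 ng/mL. The unstimulated spread was thus smaller than counting noise gives on average.

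At 10 against 0 ng/mL no member was called, while the ratio of Hspe1 to Hspd1 differed as given above, for a pair chosen after values were seen. How often ratios of other gene pairs part in this way was not tested. The log2 fold changes ran from -0.30 (Hspe1) to 0.21 (Hspa1a), every edgeR adjusted p was at least 0.97, and no member had an unadjusted p under 0.05. Over all genes 0% were called in edgeR, 843 (4.78%) had an unadjusted p under 0.05, and the DESeq2 Wald test called 8. The intervals remain informative for the steady genes, from -0.13 to 0.09 for Dnajb1 and from -0.15 to 0.11 for Hsp90ab1, while that of Hspa1a reached from -0.23 to 0.65. Between 100 and 10 ng/mL, 2 members were higher and 1 was lower, where 40.5% of all genes were called (19.9% higher, 20.6% lower), and 1 member, Hsp90ab1, had groups that did not overlap, as did 25.6% of all genes. The comparisons with 0 and with 10 ng/mL share the 100 ng/mL libraries.

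Several members have processed pseudogenes, copies of the spliced transcript elsewhere in the genome, and these copies carried counts. Copies were taken as annotated pseudogenes with at least 85% identity over at least 200 bases, and other kinds of gene were not counted. The 5 copies of Hsp90aa1 in the table held 11068.8 counts per library on average, 69.6% of the family, against 4825.8 for Hsp90aa1 itself. Copies held 58.7% of the family counts of Hspe1, 53.0% of Hspd1, 42.4% of Hsp90ab1, 40.0% of Hspa8 and 26.7% of Hspb1. For Hsp90aa1 and its 2 nearest copies, 60 coding bases with the most differences are shown (positions 163 to 222, differing bases in capitals). The best alignments of these copies cover 2255 (Gm12346) and 2202 (Gm5844) bases, for a gene with a listed length of 3942. Matches outside these alignments were not examined.
Hsp90aa1: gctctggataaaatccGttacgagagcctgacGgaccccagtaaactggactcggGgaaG
Gm12346: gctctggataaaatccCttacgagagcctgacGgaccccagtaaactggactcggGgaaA
Gm5844: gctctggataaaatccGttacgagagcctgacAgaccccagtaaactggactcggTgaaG

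Counts of the copies followed those of the members closely. Gm12346 (chromosome 11, 77293444 to 77295898), 99.5% identical to Hsp90aa1, had 0.964 times its count, with 0.959 to 0.970 over the 15 libraries. This is a coefficient of variation of 0.3%, where counting noise of separate counts would give 2.1%, while Hsp90aa1 itself ranged from 116 to 181 CPM. Gm5844 (chromosome 3, 18008806 to 18010996), 98.5% identical, had 0.930 times, with 0.4% against 2.1%. Hspd1-ps3 (chromosome 11, 41498737 to 41500458), 99.0% identical to Hspd1, had 0.912 times, with 1.6% against 6.8%. Ratios steadier than separate counting allows are a measured property of these columns, while the sources used here do not say how reads matching several genes were counted. Hsp25-ps1, 99.8% identical to Hspb1, was less steady, with 7.4% against 3.9%, as was Hspa1a to Hspa1b, with 8.9% against 5.1%.

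Hsp90ab1 has more distant copies. Gm6368 (chromosome X, 141980175 to 141982321) is 91.0% identical and had 0.464 times its count (1.3% against 1.2%), and Gm13498 is 88.8% identical and had 0.222 times (1.1% against 1.6%). They rose with Hsp90ab1, by 0.37 ± 0.058 (edgeR adjusted p = 0.000115) and 0.33 ± 0.055 (adjusted p = 0.000195) on the log2 scale at 100 against 0 ng/mL. For Hspa8, 13 copies are annotated and 11 are in the table, with 183.4 counts per library in all against 275.5 for the gene. The pair with Gm8355, 98.7% identical over 1941 bases, is shown over the 60 coding bases with the most differences (positions 410 to 469, differing bases in capitals).
Hspa8: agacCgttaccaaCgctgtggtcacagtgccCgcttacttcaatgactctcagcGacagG
Gm8355: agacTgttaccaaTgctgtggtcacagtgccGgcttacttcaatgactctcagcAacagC
With its copies added, Hspa8 stood at 14.5 ± 1.48 CPM unstimulated and 13.4 ± 1.84 CPM at 100 ng/mL (log2 fold change -0.11 ± 0.099, edgeR adjusted p = 0.39). Summing each member with its copies changed no call in any of the 3 comparisons. Of the called members only Hsp90ab1 has listed copies, and its main copies kept nearly constant shares, so this sum could hardly change the calls.

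**Figure D3:**
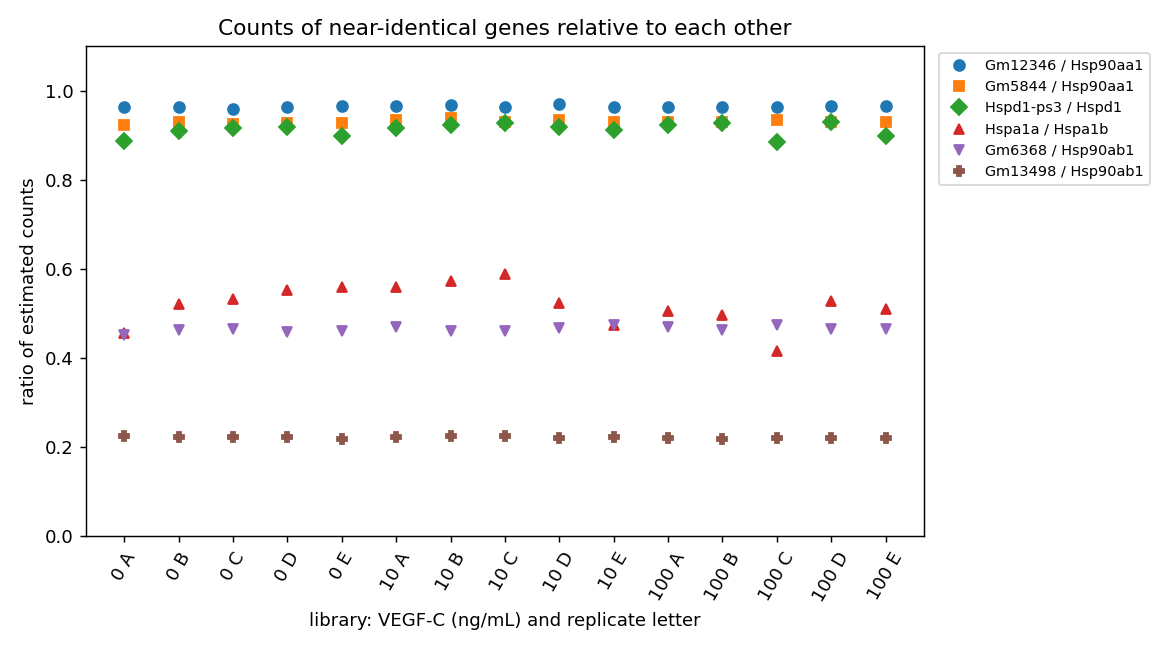
Ratio of the estimated counts of near-identical genes (vertical axis, from 0) in each of the 15 libraries (horizontal axis, VEGF-C in ng/mL and replicate letter); each symbol is a pair of genes. Gm12346 and Gm5844 lie at nearly constant shares of Hsp90aa1 in every library, while Hspa1a to Hspa1b ranged from 0.416 to 0.589.

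Within groups, several members varied together. Pearson's r between deviations of log2 CPM from the group means, over 15 libraries that share this depth and normalization, was 0.96 for Hspa1a with Hspa1b, 0.97 for Hsp90aa1 with Hspd1, 0.90 for Hspe1 with Hspd1, 0.88 for Hsp90aa1 with Hspe1 and 0.79 for Hsp90aa1 with Hsp90ab1. Hsph1 ran the other way, at -0.80 with Hspe1, -0.78 with Hspa8 and -0.75 with Hspd1, and Hspb1 went with Dnajb1 at 0.77. Hspa1b had -0.22 with Hspd1 and -0.33 with Hsp90aa1 but 0.27 with Hspa8, and Hspa1a had 0.38 with Hspa8. The inducible HSP70 pair shared its lowest libraries, unstimulated A and 10 ng/mL E. Hspa8, Hsp90aa1, Hsp90ab1, Hspe1 and Hspd1 were highest, in each group, in the library that stood apart, a pattern of 14.04% of all genes tested.

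**Figure D4:**
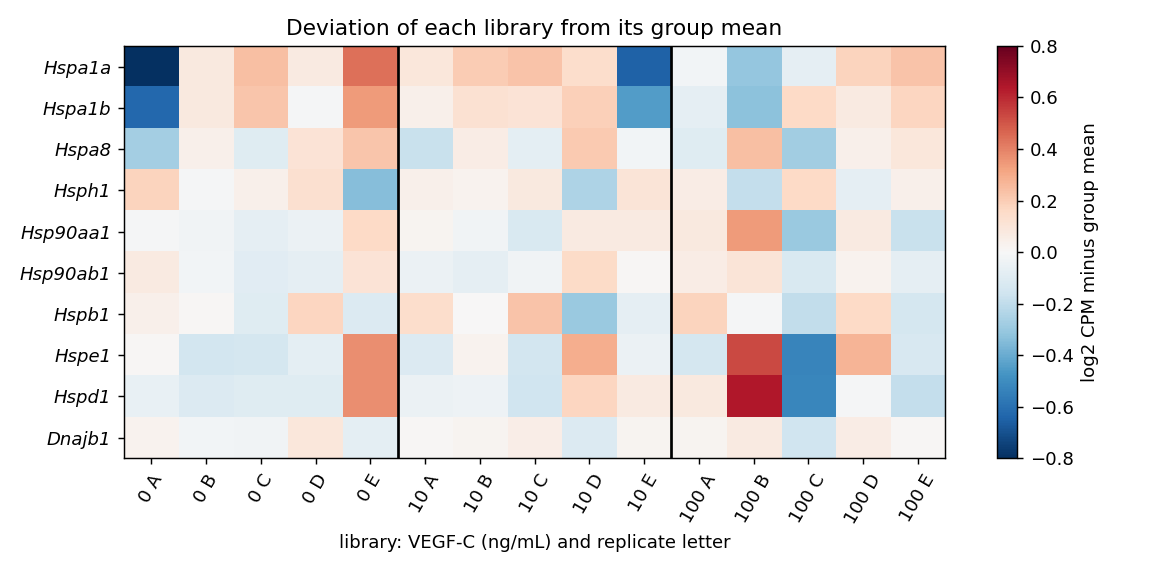
Deviation of each library from its group mean in log2 CPM (colour, red above and blue below) for the 10 members (vertical axis) in the 15 libraries (horizontal axis, VEGF-C in ng/mL and replicate letter, groups parted by black lines). Hspe1 and Hspd1 are high in 0 E, 10 D and 100 B, where Hsph1 is low, and the Hspa1a and Hspa1b pair is low in 0 A and 10 E.

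Among other chaperone genes, 83 of a list of 85 were tested. At 100 against 0 ng/mL 19 rose and 18 fell, shares close to the 21.3% higher and 21.5% lower over all genes, against which the counts of the lists below are also to be read, with a median log2 fold change of 0.01 beside 0.01 over all genes, and at 10 against 0 ng/mL none was called. Of 4 heat shock factors, Hsf4 fell by 0.70 ± 0.15 on the log2 scale (edgeR adjusted p = 0.00135) at a low level, and Hsf1, the main activator, was at 51.3 ± 0.948 CPM unstimulated and 47.9 ± 5.88 CPM at 100 ng/mL (-0.10 ± 0.071, adjusted p = 0.282).

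The largest rise in this list was in the HSP110 family. Hspa4l, a relative of Hsph1, went from 74.2 ± 10.6 CPM unstimulated and 84.99 ± 8.06 CPM at 10 ng/mL to 239.6 ± 68.0 CPM at 100 ng/mL (1.69 ± 0.17 on the log2 scale, edgeR adjusted p = 1.82e-06). Hspa12a, a distant HSP70 relative, rose from 14.4 ± 6.61 to 30.3 ± 5.05 CPM (1.07 ± 0.27, adjusted p = 0.00503). These were the 2 called of 7 genes of the other HSP70 and HSP110 family, and none fell; without unstimulated E, or without 100 ng/mL A, 1 fell. Of 14 J-domain genes 2 fell, Dnajb4 by 0.38 ± 0.10 (edgeR adjusted p = 0.00781) and Dnajb2 by 0.24 ± 0.074 (0.0155). Another 3 rose, Dnajc2 by 0.27 ± 0.074 (edgeR adjusted p = 0.00896), Dnajb6 by 0.21 ± 0.059 (0.0116) and Dnaja2 by 0.10 ± 0.04 (0.0467), the last a call lost in 22 of 27 alternatives. Of 9 cofactors of HSP70, 3 rose and 1 fell: Bag3, the partner of HSP70 in clearing damaged protein, rose by 0.31 ± 0.065 (adjusted p = 0.00146), St13, also called Hip, by 0.24 ± 0.047 (0.000665), and Bag2 fell by 0.75 ± 0.088 (9.02e-06). The third rise, of Hspbp1 by 0.25 ± 0.091 (edgeR adjusted p = 0.0373), was lost in 16 of 27 alternatives.

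Around HSP90, 4 of 11 co-chaperones rose and 1 fell. Fkbp5, an immunophilin of steroid receptor complexes, rose from 69.7 ± 8.18 to 125.5 ± 18.7 CPM (0.85 ± 0.11, edgeR adjusted p = 2.94e-05). Unc45a, a myosin chaperone, rose by 0.40 ± 0.078 (edgeR adjusted p = 0.000859) and Tomm34 by 0.27 ± 0.056 (0.00129). Fkbp4, a relative of Fkbp5, fell by 0.19 ± 0.065 (edgeR adjusted p = 0.025). The fall of Fkbp4 was lost without unstimulated A or B or 100 ng/mL C, each of which left no member of this list lower. Of 8 subunits of TRiC, the cytosolic chaperonin that folds actin and tubulin, 5 rose and none fell, by 0.20 to 0.30, among them Cct2 at 0.30 ± 0.078 (edgeR adjusted p = 0.00665) Cct4 at 0.26 ± 0.050 (0.00067) and Cct6a at 0.25 ± 0.084 (0.0253, lost in 10 of 27 alternatives). Without unstimulated B or C or 100 ng/mL B, 3 of them were called, and the summed TRiC level was highest in 100 ng/mL B, at 2926 CPM in a group of 2194 to 2926, against 2043 to 2332 unstimulated.

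In the mitochondrion, where Hspe1 and Hspd1 were not called, 2 of 11 other chaperones and proteases rose and 1 fell. Grpel1, the nucleotide exchange factor of mitochondrial HSP70, rose from 69.5 ± 4.49 to 101.7 ± 5.63 CPM (0.55 ± 0.061, edgeR adjusted p = 4.71e-06), and Trap1, the mitochondrial HSP90, from 89.8 ± 4.18 to 114.8 ± 6.61 CPM (0.35 ± 0.049, adjusted p = 3.58e-05). Hspa9, the mitochondrial HSP70 itself, had 0.08 ± 0.085 (adjusted p = 0.491). The gene that fell was Dnajc19 (-0.23 ± 0.078, edgeR adjusted p = 0.0254), a call lost in 4 of 26 alternatives. The count of falls was 0 without unstimulated D, 2 without unstimulated A, 100 ng/mL B or 100 ng/mL C, and 3 without 10 ng/mL D. The count of rises was 4 without 100 ng/mL C. Transcripts encoded in the mitochondrial genome rose in 12 of 15 cases, with sums of 9284 to 13370 CPM unstimulated, 13380 to 17440 CPM at 10 ng/mL and 12910 to 17880 CPM at 100 ng/mL. Their median log2 fold change was 0.48 at 100 against 0 ng/mL, 0.45 at 10 against 0 ng/mL, where none was called, and 0.03 between the doses. This median was thus positive at both doses at which the ratio of Hspe1 to Hspd1 was lower. The part of these transcripts in the values of the mitochondrial chaperones was not tested.

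In the endoplasmic reticulum, 9 of 14 chaperones fell and none rose at 100 against 0 ng/mL, with a median log2 fold change of -0.25, where 21.5% of all genes fell. At 100 against 10 ng/mL 2 of the 14 fell, with a median of -0.16, where 20.6% of all genes fell. Serpinh1, the collagen chaperone HSP47, fell by 0.46 ± 0.15 (edgeR adjusted p = 0.0181), Dnajc3 by 0.39 ± 0.056 (6.48e-05), Calr by 0.34 ± 0.082 (0.00364), Hsp90b1, the HSP90 of this compartment, by 0.30 ± 0.098 (0.0228) and Hspa5, its HSP70, by 0.28 ± 0.11 (0.0435). The call of Hspa5 was lost in 12 of 27 alternatives, and that of Hsp90b1 without unstimulated E (-0.24, edgeR adjusted p = 0.0598) or 100 ng/mL E (-0.26, 0.0594). The count was 5 without unstimulated D, 4 without 100 ng/mL A or D and 3 without unstimulated E or 100 ng/mL E, and 10 with all 3 libraries that stood apart left out. The small heat shock proteins other than Hspb1 fell in 3 of 5 tested cases: Cryab, the α-crystallin B chain, went from 25.3 ± 6.55 to 6.90 ± 4.24 CPM (-1.88 ± 0.30, edgeR adjusted p = 0.000157), Hspb6 from 9.18 ± 1.40 to 2.76 ± 0.992 CPM (-1.73 ± 0.19, 4.75e-06) and Hspb7 from 1.04 ± 0.586 to 0.247 ± 0.143 CPM (-2.05 ± 0.56, 0.00811). The fibroblastic and mural markers, 13 of 16 lower with sums as given above and Dcn at 760 ± 259.8 CPM unstimulated and 30.9 ± 18.3 CPM at 100 ng/mL, were lower at the same dose as Serpinh1, Cryab, Hspb6 and Hspb7, and their part in these falls was not tested.

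**Figure D5:**
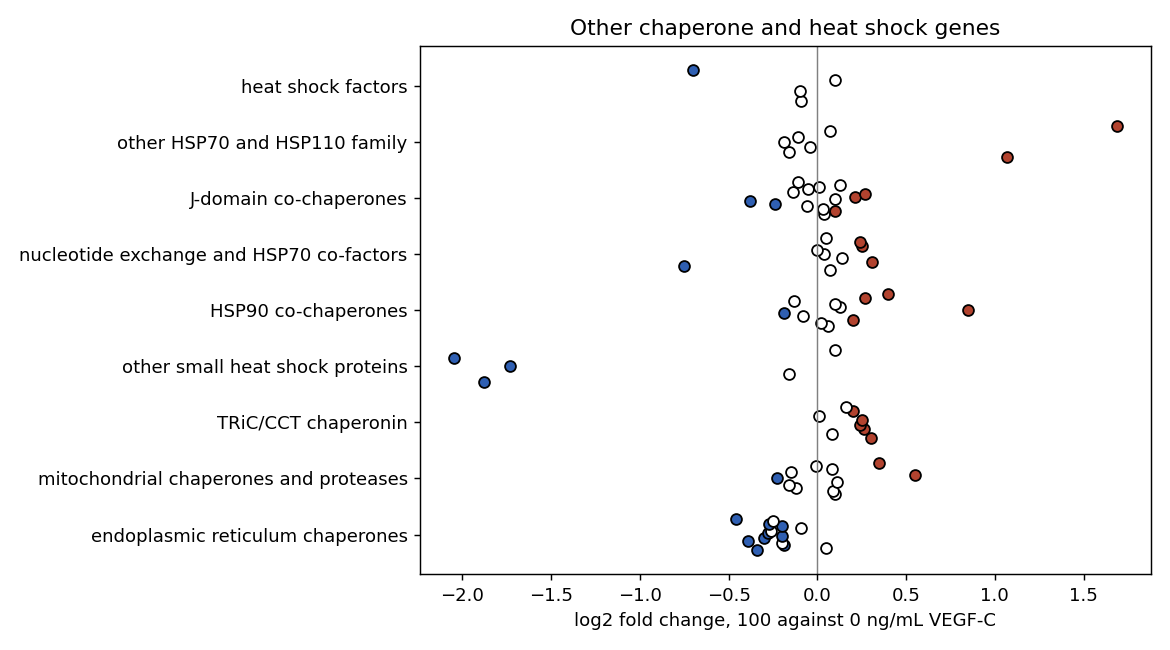
Log2 fold change at 100 against 0 ng/mL VEGF-C (horizontal axis) of the 83 tested chaperone and heat shock genes outside the members, by list (vertical axis, offsets within a list only part the points); red was called higher, blue lower and white not called in edgeR (adjusted p under 0.05). Endoplasmic reticulum chaperones lie mostly below 0, TRiC subunits above 0, and Hspa4l is the point farthest to the right at 1.69.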

How the data were processed

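RNA of 15 libraries was sequenced from poly-A selected, stranded libraries, per the labels. The authors deposited estimated counts and RPKM values of 45706 genes in every library, per the file headers; 64.3% of the estimated counts were fractional. The submitters' processing notes name FastQC, Bowtie2, limma, GRCm38 and mm10. The sources used here do not name the counter, its use of strand or its treatment of reads matching several genes, so counts of near-identical genes are uncertain. RPKM served only to compare levels between genes.

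Counts were rounded, filtered with filterByExpr, scaled by TMM and fitted in edgeR 4.0.16 (R 4.3.3) with a robust quasi-likelihood model over all 15 libraries with group as its only term. P-values were Benjamini-Hochberg adjusted over 17650 genes, with a threshold of 0.05. SDs are over 5 libraries, and their number limits the precision. All pairs of libraries within a group differed by more than counting noise (smallest chi-square per degree of freedom 8.68). Pseudogene copies were found with blastn 2.17.0 between GENCODE M21 transcripts. Permutation tests used SciPy 1.17.1. The fit was tested on simulated data for 100 against 0 ng/mL: of 200 changed genes among 14866 it recovered 72% at 1.5-fold, 99% at 2-fold and 95% at 4-fold, and it called 11 unchanged genes. Far fewer genes changed there than the 42.8% called in the data. Changes under 1.5-fold, such as those of Hsp90ab1 (1.27) and Dnajb1 (0.87), were not simulated.

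The members and gene lists were chosen with earlier results of these data known. Named genes are the 10 members and up to 3 called genes of each list in each direction by fold change. Also named are 7 set genes (Hsf1, Hspa5, Hspa9, Hsp90b1, Bag3, Cryab, Serpinh1) and the 6 genes most like the members' mean over libraries. For the lists of cell type, early response and mitochondrially encoded genes, which are no chaperones, counts and sums stand in for the names. Alternatives were DESeq2 1.42.0 size factors and Wald test, a minimum of 10 CPM in 5 libraries, no filter, library size alone, limma-voom (limma 3.58.1), limma on log2(RPKM + 1) and log2(RPKM + 0.1), fits of only the 10 libraries compared, a replicate block and leaving out each library. Sums with copies, the removal of 3 libraries and the ratio tests were added after seeing the data. Protein sequences were not used here.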

Additional observations from a re-analysis of the deposited data

Results flagged for a closer look

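Each of the 10 members was examined in each of the 3 groups for a library far from the other 4, by the gap to its neighbour over the group's range. Chance picks out about 1 in 20 such groups, and here 8 of 30 were picked out, with groups that are not independent because members vary together. The critical ratio is 0.71. Several fell on unstimulated E, with Hspd1 at 17.15 CPM (others 12.27 to 12.67), Hspe1 at 4.227 CPM (others 2.925 to 3.279) and Hsp90aa1 at 159.5 CPM (others 135.7 to 142.0). In 10 ng/mL D, Hsph1 was at 497.2 CPM (others 604.9 to 632.4) and Dnajb1 at 65.1 CPM (others 70.93 to 72.93). In 10 ng/mL E, Hspa1a was at 11.08 CPM (others 18.42 to 20.33) and Hspa1b at 23.42 CPM (others 32.9 to 36.48). In 100 ng/mL C, Dnajb1 was at 55.56 CPM (others 62.5 to 65.28).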

How the results depend on the processing

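Over 27 alternatives, the calls of Hsp90ab1 (log2 0.31 to 0.38), Hspa1b (0.51 to 0.80) and Dnajb1 (-0.24 to -0.16) at 100 against 0 ng/mL were kept. The calls of Hspa1a and Hsph1 depend on single libraries, as given above. The number of members called at 100 against 0 ng/mL was 5 without the 3 libraries that stood apart and 3 to 5 with each library left out. Over all genes, 4961 were called at 100 against 0 ng/mL with the filter of 10 CPM, where fewer genes were tested (7555 otherwise), and at 10 against 0 ng/mL 8 in the DESeq2 Wald test and 0 to 1 with each library left out. The replicate block gave 3 members and 7049 genes called at 100 against 0 ng/mL, 0.61 for the Hspa1a and Hspa1b sum, and 2 members at 100 against 10 ng/mL, where Hspa1b was 0.467 (adjusted p = 0.0528). Letters did not pair the libraries: r between deviations of same-lettered libraries was -0.34 to 0.13 over 15 pairs, with 2 over 0.1. The best match always carried another letter. For unstimulated A to E it was 10 ng/mL E, A, B, C and D, at r of 0.487 to 0.786. For 10 ng/mL A to E it was 100 ng/mL D, E, A, B and C, at 0.21 to 0.428. From unstimulated to 100 ng/mL, C was best for both A and B. The replicate block used the letters, so pairing by these matches was not tested, and the other tests treated libraries as unpaired. Signs turned for the uncalled members listed next, and the cause was not tested. For Hsp90aa1 at 100 against 0 ng/mL the log2 fold change was -0.0221 with library size alone, -0.0148 with 10 CPM, -0.0337 and -0.0359 on log2(RPKM + 1) and log2(RPKM + 0.1), -0.000185 with the 10 libraries compared and -0.0334 without the 3 libraries. At 10 against 0 ng/mL it was -0.0293, -0.00527, -0.027, -0.0282 and -0.000499 in the first 5 of these settings. At 100 against 10 ng/mL it was -0.000247 without a filter, -0.00949 with 10 CPM, -0.00242 in limma-voom, -0.00668 and -0.00767 on the RPKM scales and -0.0628 without the 3 libraries. For Hspb1 at 100 against 0 ng/mL it was -0.033 with library size alone, -0.0102 without a filter, -0.0263 with 10 CPM, -0.0363 and -0.0373 on the RPKM scales, -0.0121 with the 10 libraries compared, -0.0188 without the 3 libraries and -0.019 with its copy. Without the 3 libraries Hspd1 at 10 against 0 ng/mL was 0.0501 and Hspe1 at 100 against 10 ng/mL -0.0246, and with copies Hspa8 at 100 against 10 ng/mL was 0.0385. Leaving out each library gave, at 100 against 0 ng/mL, -0.0763 to 0.0866 for Hsp90aa1, -0.0453 to 0.0513 for Hspb1 and -0.0343 (without 100 ng/mL B) to 0.272 for Hspd1. At 10 against 0 ng/mL it gave -0.0147 to 0.0476 for Hsp90aa1, -0.04 to 0.00558 for Dnajb1, -0.0392 to 0.0948 for Hsph1, -0.0611 to 0.00446 for Hsp90ab1 and -0.0568 to 0.0948 for Hspd1. At 100 against 10 ng/mL it gave -0.0786 to 0.0841 for Hsp90aa1, -0.0838 to 0.0452 for Hspa8, -0.102 to 0.169 for Hspe1 and -0.0196 (without 100 ng/mL B) to 0.286 for Hspd1. Library size alone moved the median of all genes by at most -0.039.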

Other observations

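The genes whose deviations from their group means followed the mean of the members most closely were Pfn1, Gch1, Sertad1, Snrnp70, Sf3b5 and Efhd2. The members did not all vary together, with Hsph1 at r of -0.80 with Hspe1, so this mean does not stand for each member. Pearson's r with the members' mean standardised deviation was 0.982, 0.981, 0.965, 0.962, 0.959 and 0.958 over 15 libraries, the highest of 9215 genes with a mean of at least 10 CPM, as a description with no test. Their mean levels ran from 29.9 to 344.8 CPM.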
